A study of Homo sapiens with 6 samples.

Results

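The genes described here are 10 components of the NODAL and activin pathway: NODAL, GDF3, LEFTY1, LEFTY2, TDGF1, ACVR2B, SMAD2, SMAD3, SMAD7 and SKIL. They were listed by name for their roles, and every ATAC-seq summit inside or within 20 kb of any of them was collected. This gave 230 of the 356720 summits in the 6 lists. Summits of different libraries within 250 bp of each other were treated as 1 locus, which gave 80 of 123131 loci. All 10 genes had at least 1 summit in every library. ATAC-seq inserts adapters with the transposase Tn5 where chromatin is accessible, and a summit is the base at which a called peak of insertions is highest.

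The libraries came from H1, an established line of human pluripotent stem cells (hPSCs), after lentiviral delivery of a short hairpin RNA and puromycin selection. In 2 groups the hairpin targeted HNRNPU, a nuclear protein that binds RNA and DNA (shHNRNPU #1 and shHNRNPU #2, 2 libraries each). In the control group it targeted luciferase, which these cells do not carry (shLUC, 2 libraries). All groups therefore share the virus, the hairpin vector and the selection, and each library was made from nuclei of 50000 cells. The labels number repeats 1 and 2 without saying whether they were separate cultures, so p-values measure only the spread between these libraries. Summits do not measure RNA, so the loss of HNRNPU itself was not checked here.

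NODAL signalling keeps hPSCs in the primed pluripotent state and later directs them to mesoderm and endoderm. A ligand such as NODAL or activin brings type II and type I receptors together, the receptors phosphorylate SMAD2 and SMAD3, and these enter the nucleus with SMAD4 and bind DNA beside partners such as FOXH1. Several targets of the pathway shut it down again. Among them are the secreted inhibitors LEFTY1 and LEFTY2, the intracellular inhibitor SMAD7 and the repressor SKIL.

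The stretches of DNA printed here are the 250 bases before 5 gene starts, and many of the loci compared below lie outside them. They are RefSeq sequences of GRCh38.p14, 5′ to 3′ on the strand of the gene. In the first 3 the capitals mark 11 bases around each library's summit, merged where summits lie close together. In the last 2 they mark AATCCACA in SMAD3-DT and ATTTGCAT in SMAD3. The shorter motif GGCGC, also searched below, occurs in the SMAD3 stretch and is left in lower case. NODAL (chr10:70441682-70441931, minus strand) is shown because the strongest summit near its start ranked lower in every shHNRNPU library, with the summits of 2 shHNRNPU libraries in this stretch and those of the other 4 libraries beyond it. TDGF1 (chr3:46574285-46574534, plus strand) held the summits of all 6 libraries. ACVR2B (chr3:38453640-38453889, plus strand) held those of 5 libraries. SMAD3-DT (chr15:67064183-67064432, minus strand), a transcript divergent from SMAD3, held the 6 summits whose rank differed most between the groups. SMAD3 (chr15:67065352-67065601, plus strand) starts on the other side of the same interval.
NODAL: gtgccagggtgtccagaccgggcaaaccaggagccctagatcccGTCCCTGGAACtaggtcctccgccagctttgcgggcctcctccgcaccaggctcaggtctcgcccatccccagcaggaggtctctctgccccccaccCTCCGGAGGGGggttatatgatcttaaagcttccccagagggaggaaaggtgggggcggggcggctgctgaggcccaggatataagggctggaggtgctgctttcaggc
TDGF1: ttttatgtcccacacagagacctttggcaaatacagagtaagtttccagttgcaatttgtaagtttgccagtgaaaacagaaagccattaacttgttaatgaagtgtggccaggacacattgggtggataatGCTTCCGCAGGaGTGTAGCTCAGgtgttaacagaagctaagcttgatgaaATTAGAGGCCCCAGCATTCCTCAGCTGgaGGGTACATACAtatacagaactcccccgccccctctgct
ACVR2B: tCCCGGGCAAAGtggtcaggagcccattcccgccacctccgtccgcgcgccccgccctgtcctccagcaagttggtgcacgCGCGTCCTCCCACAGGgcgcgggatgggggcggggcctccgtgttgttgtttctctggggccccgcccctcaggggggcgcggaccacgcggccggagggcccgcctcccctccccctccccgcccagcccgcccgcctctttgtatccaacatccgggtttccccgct
SMAD3-DT: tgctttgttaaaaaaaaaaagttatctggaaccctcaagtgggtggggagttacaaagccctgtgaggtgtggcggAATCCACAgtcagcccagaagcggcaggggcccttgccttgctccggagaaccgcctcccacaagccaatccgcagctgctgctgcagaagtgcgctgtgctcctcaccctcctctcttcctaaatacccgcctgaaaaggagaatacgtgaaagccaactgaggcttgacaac
SMAD3: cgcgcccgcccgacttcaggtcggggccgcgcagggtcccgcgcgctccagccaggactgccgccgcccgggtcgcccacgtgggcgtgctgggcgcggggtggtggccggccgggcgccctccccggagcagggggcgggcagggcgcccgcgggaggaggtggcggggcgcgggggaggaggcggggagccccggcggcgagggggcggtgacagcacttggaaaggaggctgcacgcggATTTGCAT

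RefSeq promoters, each running from 250 bases before the start to 50 after it, matched 8 of the 10 genes with 16 entries, and LEFTY1 and LEFTY2 had no entry. Both strands were searched for AATCCACA and its looser form AATNNACA, which contains it (FOXH1), for GTCTAGAC, CAGACA and GGCGC (SMAD proteins) and for ATTTGCAT (POU factors). In SMAD3-DT, AATCCACA lay at positions −174 to −167, where 0 is the start base. It occurs in 0.817% of the 35116 promoters of the table. That share is for a single promoter and motif. Several motifs were searched in the 16 entries and in those of SMAD3-DT and the antisense gene ACVR2B-AS1. A match somewhere among them is therefore likelier than the share. SMAD3 had ATTTGCAT at −8 to −1, a match found in 1.77% of promoters. GDF3 had AATNNACA at −56 to −49 and the internal SMAD3 start at chr15:67125742 at −111 to −104, as 11.0% of promoters do. At the start of SMAD3 at chr15:67138021 CAGACA was found, which 16.9% of promoters hold, and GGCGC, held by 48.6%, was in entries of ACVR2B, SMAD2, SMAD3 and SKIL. The palindrome GTCTAGAC, in 0.202% of promoters, was in none of the 16. These are matches of letters and not measured binding sites.

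The 6 lists held 52168 to 63519 summits. Markers of the labelled cell type were checked with summits within 2 kb of either gene end. Of 8 pluripotency markers, 7 had a summit in every library, POU5F1, SOX2 and NANOG among them, and LIN28B had none. A summit in every library was also found for 3 of 3 neuroectoderm, 2 of 3 mesoderm, 2 of 3 endoderm and 1 of 3 trophoblast and amnion markers. The same held for 2 of 4 markers of other differentiated cells (MYOD1 and COL1A2), while PTPRC and ALB had no summit in any library. Summits near marker genes thus did not separate the cell types, and the part of other cells in the results was not tested. No read counts or depths were used here, so where a library lacks a summit the locus was merely not called, and no lower limit of detection can be given.

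Values below follow 1 order: repeats 1 and 2 of shHNRNPU #1, repeats 1 and 2 of shHNRNPU #2, then repeats 1 and 2 of shLUC. A summit's strength is given as its percentile, the rank of its score among all summits of its own library with 100 the strongest. The deposited score was read from its layout and values as the −log10 of a q-value, which no label states. It was not scaled between libraries.

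Summits around the 10 genes numbered 44, 45, 35 and 37 in the shHNRNPU libraries and 34 and 35 with shLUC. Per 10000 summits of the library these were 7.45, 7.08, 5.99 and 7.09 against 5.47 and 5.70, so every shHNRNPU library lay above both controls. The same held for the sum over the windows of all 20037 protein-coding genes, with 11631, 11369, 11361 and 11923 against 10838 and 11041. For the 10 genes the means were 6.90 ± 0.632 (SD, n = 4) and 5.58 ± 0.167 (SD, n = 2), a ratio of 1.24, and over all protein-coding genes the ratio was 1.06. SMAD3 carried much of the difference. Without its window the shHNRNPU libraries had 5.93, 5.67, 4.96 and 6.52 and the shLUC libraries 4.82 and 5.21 summits per 10000, and the groups overlapped. When summits scoring below 5 were left out, the difference between the means of all 10 windows fell from 1.32 to 0.466 per 10000.

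Gene by gene, 1 of 10 had more summits in every shHNRNPU library than in either control, against 3.31% of all protein-coding genes, and 0 of 10 had fewer, against 3.67%. That gene was ACVR2B. When summits scoring below 5 were left out, 0 of 10 were higher (background 2.97%) and 1 was lower (SMAD7, background 2.57%). The median difference was 0.25 summits over the 10 genes and 0 over all protein-coding genes. With 4 libraries against 2, the two-sided exact permutation test has 15 assignments and cannot go below p = 0.133, so no comparison here could reach 0.05, and the Benjamini-Hochberg adjusted p over all windows was 1 for each of the 10 genes. With shHNRNPU #1 alone, 3 of 10 genes had more summits than both controls (ACVR2B, SMAD3 and SMAD7, background 10.9%) and 0 had fewer (6.57%). With shHNRNPU #2 alone these numbers were 1 (ACVR2B, background 5.6%) and 0 (9.75%).

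**Figure D1:**
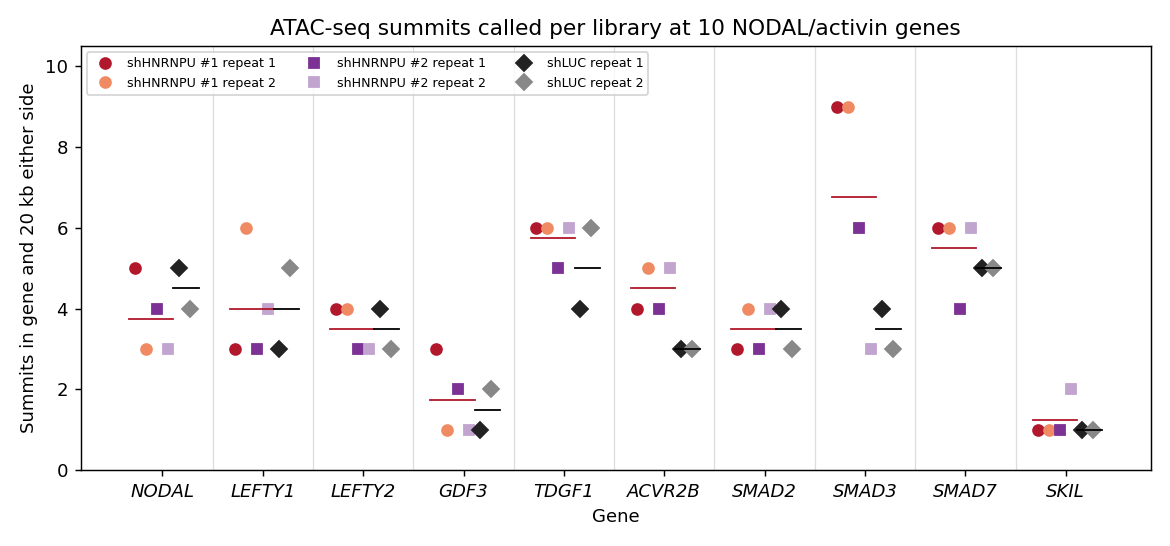
Number of ATAC-seq summits inside each gene and within 20 kb of it (y axis) for the 10 genes (x axis). Each point is 1 library, and short lines are group means (red, 4 shHNRNPU libraries; black, 2 shLUC libraries). The groups separate at ACVR2B, with 4 to 5 against 3 summits, and the widest scatter is at SMAD3, from 3 to 9.

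Loci were also compared by presence. Of the 80 loci, 0 were lost, that is, held by both shLUC libraries and by no shHNRNPU library, against 1.93% of all loci. Gained loci, held by all 4 shHNRNPU libraries and neither control, numbered 2 of 80, against 0.88% of all loci, and were at ACVR2B and SMAD7. When summits scoring below 5 were left out, the gained loci numbered 0. All 6 libraries held 15 loci (18.8%, against 20.7% of all loci), and 28 loci were in a single library (35.0%, against 38.0%). Loci seen only in shHNRNPU libraries made up 43.8% of the 80, against 31.6% of all loci, and those seen only in shLUC libraries 6.25%, against 17.4%. There are 4 shHNRNPU lists and 2 control lists, so the former class is the larger among all loci too. Hairpin by hairpin, shHNRNPU #1 gained 5 loci (background 3.62%) and lost 1 (3.53%), and shHNRNPU #2 gained 2 (2.4%) and lost 0 (4.05%).

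At the 15 loci of all 6 libraries the percentile was higher in every shHNRNPU library at 2 (background 10.9%), in the windows of SMAD3 and LEFTY2, and lower at 1 (13.9%), also in the LEFTY2 window. The median difference, shHNRNPU minus shLUC, was −0.12 percentile points at these loci and −0.29 at all 25519 loci of this kind. The smallest adjusted p over those 25519 loci was 0.538 (exact permutation test, Benjamini-Hochberg).

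**Figure D2:**
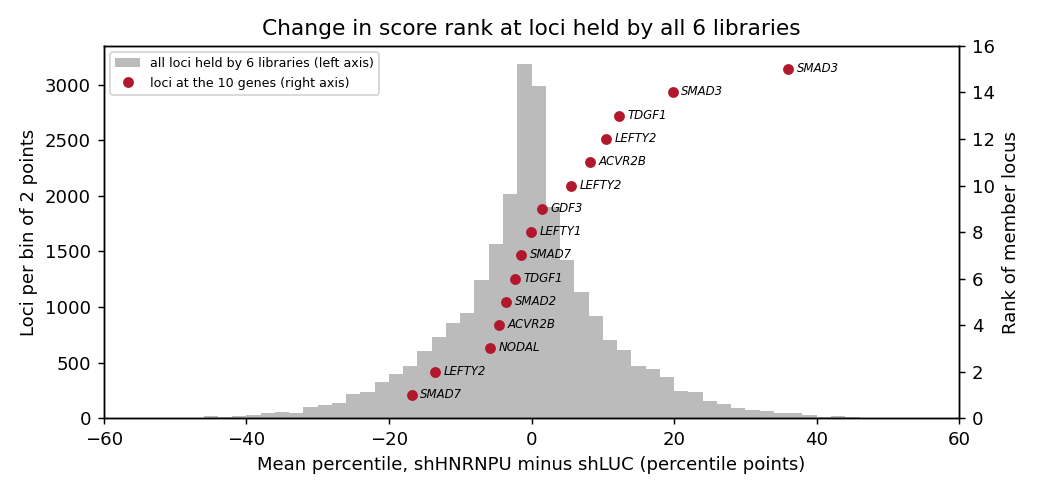
Difference in mean score percentile, shHNRNPU minus shLUC, at loci held by all 6 libraries (x axis, percentile points). Grey bars count the 25519 loci in bins of 2 points (left axis, with any loci beyond 60 points not drawn), and red points are the 15 loci at the 10 genes, ordered by difference (right axis). They run from −16.8 at a SMAD7 locus to 36.0 at the SMAD3 locus beside SMAD3-DT, with 8 of 15 below 0.

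NODAL, the ligand that names the pathway, lies at chr10:70431936-70447951 on the minus strand, with the start of its RefSeq promoter at 70441681, inside the annotated gene. Its window held 5, 3, 4 and 3 summits with shHNRNPU and 5 and 4 with shLUC, a difference of −0.75 (p = 0.667, exact permutation test). These counts overlap. The libraries differed in which base near the start carried the strongest summit. In both shLUC libraries, in repeat 2 of shHNRNPU #1 and in repeat 1 of shHNRNPU #2 it lay 859 to 924 bp before the start (locus at chr10:70442557). Repeat 1 of shHNRNPU #1 and repeat 2 of shHNRNPU #2 had no summit there and had theirs 104 and 201 bp before the start (locus at chr10:70441882), in the sequence printed above.

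The groups did not overlap in strength at the NODAL start. The strongest summit within 1 kb had percentiles of 58.8, 82.4, 82.4 and 61.0 with shHNRNPU and 88.5 and 90.1 with shLUC. All 4 shHNRNPU values were below both controls, and the 2 lowest were those of the libraries whose summit lay at 70441882. The deposited scores behind them were 9.61, 21.0, 18.1 and 11.2 against 26.2 and 27.1. The means were 71.1 ± 13.1 (SD, n = 4) and 89.3 ± 1.12 (SD, n = 2), a difference of −18.2 percentile points (exact permutation test, p = 0.133, the smallest possible, adjusted p = 0.600). This measure was chosen after the data were seen. Of the 10310 protein-coding genes with such a summit in every library, 7.18% were lower in all shHNRNPU libraries and 15.1% higher, and of the 6 genes described here that belong to this set 1 was lower (NODAL) and 1 higher (SMAD3).

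Weaker NODAL summits inside the gene were less regular. A locus 206 bp past the start (chr10:70441475) had percentiles of 11.6 and 3.58 in the shLUC libraries and 31.2 in repeat 1 of shHNRNPU #2, and was not called in the other 3. It is the 1 locus lost with shHNRNPU #1. Another, 896 bp past the start, was held by 3 libraries at 12.8 to 31.8. Upstream, 13818 bp before the start and 2986 bp from PALD1, a locus at chr10:70455499 was held by all 6 libraries at 82.9, 87.0, 85.2 and 74.5 against 86.1 and 90.4, and the groups overlapped (difference −5.87).

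**Figure D3:**
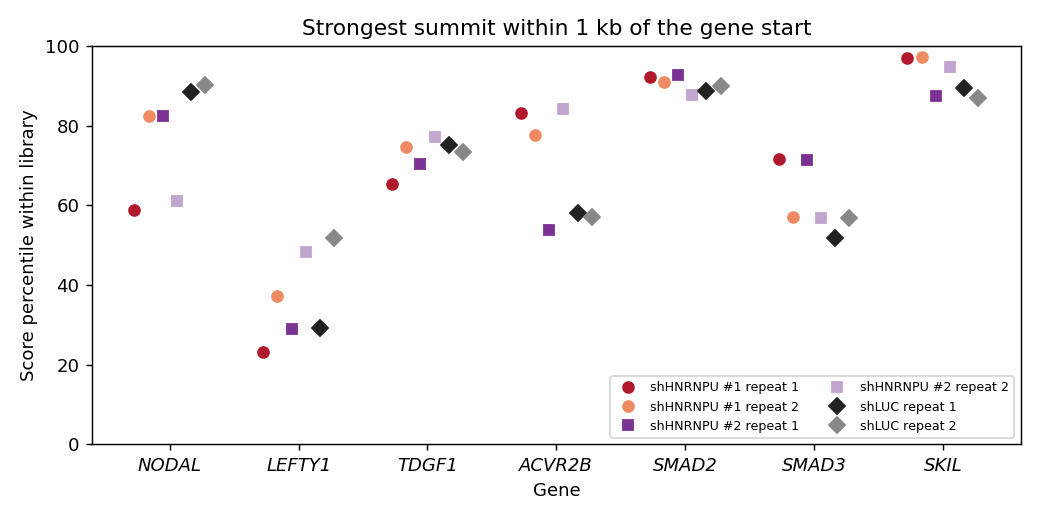
Score percentile of the strongest summit within 1 kb of the gene start, or of the higher end for LEFTY1 (y axis), for the 7 genes with such a summit in every library (x axis). Each point is 1 library. The shHNRNPU points lie below both shLUC points at NODAL (58.8 to 82.4 against 88.5 and 90.1) and above both at SMAD3 (56.8 to 71.6 against 51.7 and 56.7), and the groups overlap at the other 5 genes.

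GDF3, a ligand of the same family expressed in pluripotent cells, is at chr12:7689784-7695775 on the minus strand. Its window had 3, 1, 2 and 1 summits against 1 and 2, and no library had a summit within 1 kb of its start. The summit nearest to the start, 1018 bp inside the gene at chr12:7694757, was present in all 6 libraries, with the 6 positions within 33 bp. Its percentiles were 52.5, 37.7, 57.6 and 73.0 with shHNRNPU and 75.3 and 32.1 with shLUC. The 2 controls enclosed all 4 shHNRNPU values. A locus 18018 bp from the start, past the far end of the gene, was in 3 libraries at 0.954 to 33.8, and a locus inside DPPA3, 17406 bp upstream, was in 1.

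LEFTY1 and LEFTY2 encode secreted inhibitors that bind NODAL and its co-receptor. They are close paralogues that lie near each other on chromosome 1, at chr1:225886282-225889146 and chr1:225936603-225941220. How the authors placed reads that fit both copies is not given in the sources used here, so summits in the shared sequence may be split between them. Their strand was not in the tables used here, so distances are counted from the end with the higher coordinate. The windows held 3, 6, 3 and 4 summits against 3 and 5 at LEFTY1 and 4, 4, 3 and 3 against 4 and 3 at LEFTY2. The mean difference was 0 for each gene.

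Loci in the LEFTY2 window did not share a direction. The locus at chr1:225945821, 4601 bp beyond the higher end and outside annotated genes, had percentiles of 77.4, 82.9, 84.1 and 65.1 with shHNRNPU and 93.2 and 88.5 with shLUC. No shHNRNPU value reached the lower control. The means were 77.4 ± 8.70 (SD, n = 4) and 90.8 ± 3.30 (SD, n = 2), a difference of −13.5 points (exact permutation test, p = 0.133, adjusted p = 0.538). It was the 1 locus of 15 that was lower throughout. Inside LEFTY2, 1548 bp from that end at chr1:225939672, all 6 libraries had a summit within 53 bp of each other at 72.9, 53.5, 57.7 and 67.0 against 64.3 and 40.4, and there the groups overlapped.

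At LEFTY1 the summits nearest the gene were weak. The strongest within 1 kb of the higher end had percentiles of 23.1, 37.1, 29.0 and 48.3 with shHNRNPU and 29.3 and 51.8 with shLUC, and the groups overlapped. They fell on 2 loci, 8 bp and 337 bp beyond the end. A locus 1317 bp beyond it was held by 3 libraries, at 70.1 in repeat 2 of shLUC. There repeat 2 of shHNRNPU #1 had 25.2 and repeat 2 of shHNRNPU #2 had 9.72. Further out, a pair of loci 10201 and 10465 bp beyond that end (chr1:225899347 and chr1:225899611) held strong summits. Their percentiles were 89.8, 91.5, 92.4 and 77.9 with shHNRNPU and 97.2 and 94.2 with shLUC, with 1 summit per library, and the summits of repeat 2 of shHNRNPU #2 and repeat 2 of shLUC lay within 250 bp of both centres. All 4 shHNRNPU values were below the controls here. Because the pair does not form a single locus of all 6 libraries it was not part of the test, and it was singled out after its values were seen. A locus of all 6 libraries at chr1:225882390 (68.0 to 83.8) lies 10 bp from an end of TMEM63A.

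TDGF1 (CRIPTO in RefSeq), the co-receptor that NODAL and GDF3 need, is at chr3:46574535-46582457 on the plus strand. Its window held 6, 6, 5 and 6 summits against 4 and 6, a difference of 0.75 (p = 0.667, exact permutation test). All 6 libraries had their summit 34 to 113 bp before the start, in the printed sequence, at chr3:46574434. The percentiles there were 65.4, 74.7, 70.3 and 77.2 with shHNRNPU and 75.2 and 73.4 with shLUC. The means, 71.9 ± 5.20 (SD, n = 4) and 74.3 ± 1.22 (SD, n = 2), differed by less than the spread between the shHNRNPU libraries. Behind the start, a locus at 958 bp was held by 4 libraries at 40.9 to 45.2 and a locus 2669 bp in, 584 bp before a further RefSeq start, by 2 at 31.9 and 49.8. At the locus centred at chr3:46566248, 54 bp from an end of LRRC2, all 6 libraries had a summit. Its percentiles were 60.3, 81.7, 45.4 and 59.2 against 55.6 and 43.0, again with overlap.

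**Figure D4:**
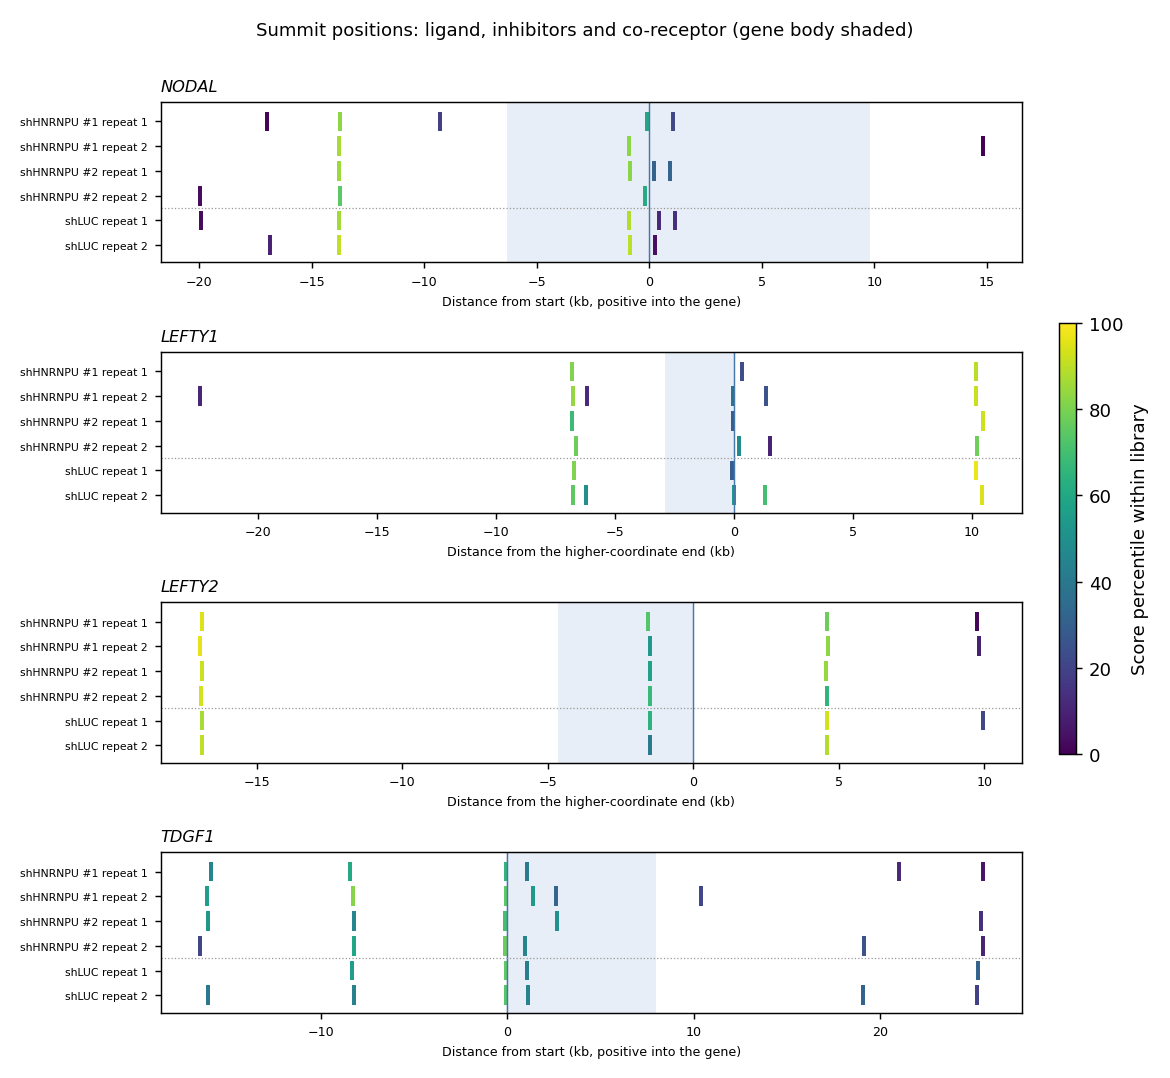
Positions of summits in the 6 libraries (rows) at NODAL, LEFTY1, LEFTY2 and TDGF1, as distance in kb from the gene start or, for the LEFTY genes, from the end with the higher coordinate (x axis). Shading is the gene, each tick is 1 summit, and colour is its score percentile within the library. At NODAL the strongest tick near the start sits 859 to 924 bp before it in 4 libraries and 104 or 201 bp before it in the other 2, while at TDGF1 all 6 stand just before the start.

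ACVR2B, a type II receptor for activin, NODAL and related ligands, is at chr3:38453890-38493142 on the plus strand. It had 4, 5, 4 and 5 summits with shHNRNPU and 3 and 3 with shLUC. The means were 4.50 ± 0.577 (SD, n = 4) and 3, a difference of 1.5 summits (exact permutation test, p = 0.133, adjusted p = 1), and the groups did not overlap. With summits scoring below 5 left out, the difference was 1 (p = 0.400, exact permutation test). The extra summit of all 4 libraries was the gained locus at chr3:38454492, 602 bp past the start. It lies inside both ACVR2B and the antisense gene ACVR2B-AS1, 328 bp from an end of the latter. Its percentiles were 40.7, 36.9, 29.0 and 44.8, all in the lower part of each list, and its scores 6.21, 5.38, 4.25 and 7.43. The nearest shLUC summit was 765 bp away.

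At the ACVR2B start, the strongest summit within 1 kb had percentiles of 83.2, 77.6, 53.9 and 84.1 with shHNRNPU and 58.0 and 57.1 with shLUC. Repeat 1 of shHNRNPU #2 was below both controls and the other 3 were well above them. The difference of the means was 17.1 points (p = 0.400, exact permutation test). In 5 libraries this summit lay 159 to 244 bp before the start (locus at chr3:38453726), in the printed sequence, and in repeat 1 of shLUC 533 bp before it, 316 bp from an end of XYLB. A locus 1673 bp inside the gene was held by all 6 libraries at 73.0, 78.6, 58.1 and 69.0 against 70.6 and 77.8, with overlap. The strongest locus of the window, at chr3:38496379 (82.5 to 94.4 against 77.4 and 83.5), lies 39 bp from an end of EXOG.

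SMAD2 and SMAD3 are the receptor-activated SMADs of this pathway. SMAD2, at chr18:47808957-47930872 on the minus strand, had 3, 4, 3 and 4 summits against 4 and 3. Its start was among the strongest of the 10 genes, with percentiles of 92.2, 91.0, 92.6 and 87.6 with shHNRNPU and 88.8 and 89.9 with shLUC. The groups overlapped, with a difference of 1.47 points. The summit lay 92 to 330 bp before the start in 5 libraries (locus at chr18:47931194) and 379 bp after it in repeat 2 of shHNRNPU #2 (chr18:47930493). Inside the gene, all 6 libraries had a summit at a locus centred 12701 bp from the start. Its percentiles were 51.2, 53.4, 47.9 and 42.7 against 41.7 and 63.0, which also overlapped. Of the 9 SMAD2 loci, 5 were in a single library.

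SMAD3, at chr15:67065602-67195169 on the plus strand, had the most loci of the 10 genes, 16, of which 14 lay inside the gene. Its window held 9, 9, 6 and 3 summits with shHNRNPU and 4 and 3 with shLUC. Both shHNRNPU #1 libraries were far above the controls and repeat 2 of shHNRNPU #2 was not. The difference was 3.25 (p = 0.400, exact permutation test). Most of the extra summits were weak and not shared: 9 of the 16 loci were in 1 library, 8 of them in a shHNRNPU library. The 3 SMAD3 loci gained with shHNRNPU #1 lay 81491, 87707 and 99405 bp past the start. Their percentiles in its 2 libraries were 13.9 and 13.5, 23.8 and 45.8, and 5.69 and 20.1. The middle locus was also in repeat 1 of shHNRNPU #2, at 38.5.

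Upstream of SMAD3 stood the locus with the largest difference in rank among the 15. It is at chr15:67064343, 1259 bp before the SMAD3 start and 161 bp before that of SMAD3-DT, and the 6 summits lay 69 to 192 bp before the latter, in the printed sequence with the AATCCACA match. Percentiles were 58.5, 83.2, 50.7 and 60.1 with shHNRNPU and 43.3 and 10.9 with shLUC. The scores were 9.53, 21.7, 7.04 and 10.9 against 6.53 and 2.68. Every shHNRNPU library was above both controls, and the 2 controls lay far apart. The means were 63.1 ± 14.0 (SD, n = 4) and 27.1 ± 22.9 (SD, n = 2), a difference of 36.0 points (exact permutation test, p = 0.133, adjusted p = 0.538), which falls to 19.8 without repeat 2 of shLUC.

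At the SMAD3 start itself the strongest summit had percentiles of 71.6, 57.1, 71.3 and 56.8 with shHNRNPU and 51.7 and 56.7 with shLUC. The 2 lower shHNRNPU values barely exceeded the higher control. The means were 64.2 ± 8.39 (SD, n = 4) and 54.2 ± 3.55 (SD, n = 2), a difference of 9.98 points (exact permutation test, p = 0.133, adjusted p = 0.600). The summits fell on a locus 45 bp past the start, held by 5 libraries, and a locus 217 bp before it, where repeat 1 of shLUC had its summit. The summit of repeat 2 of shHNRNPU #2, 9 bp past the start, lay within 250 bp of both centres. Loci near internal starts of SMAD3 were 73 bp before one (chr15:67098606, repeat 1 of shHNRNPU #2 alone, 29.5) and 55 bp after another (chr15:67125797, repeat 1 of shLUC alone, 21.8). The strongest locus of the gene, at chr15:67165978, lay 553 bp before an internal start and was held by all 6 libraries at 84.9, 85.1, 88.7 and 68.3 against 55.2 and 68.8. Only repeat 2 of shHNRNPU #2 fell between the controls there. The difference was 19.8 points (p = 0.267, exact permutation test, adjusted p = 0.661).

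**Figure D5:**
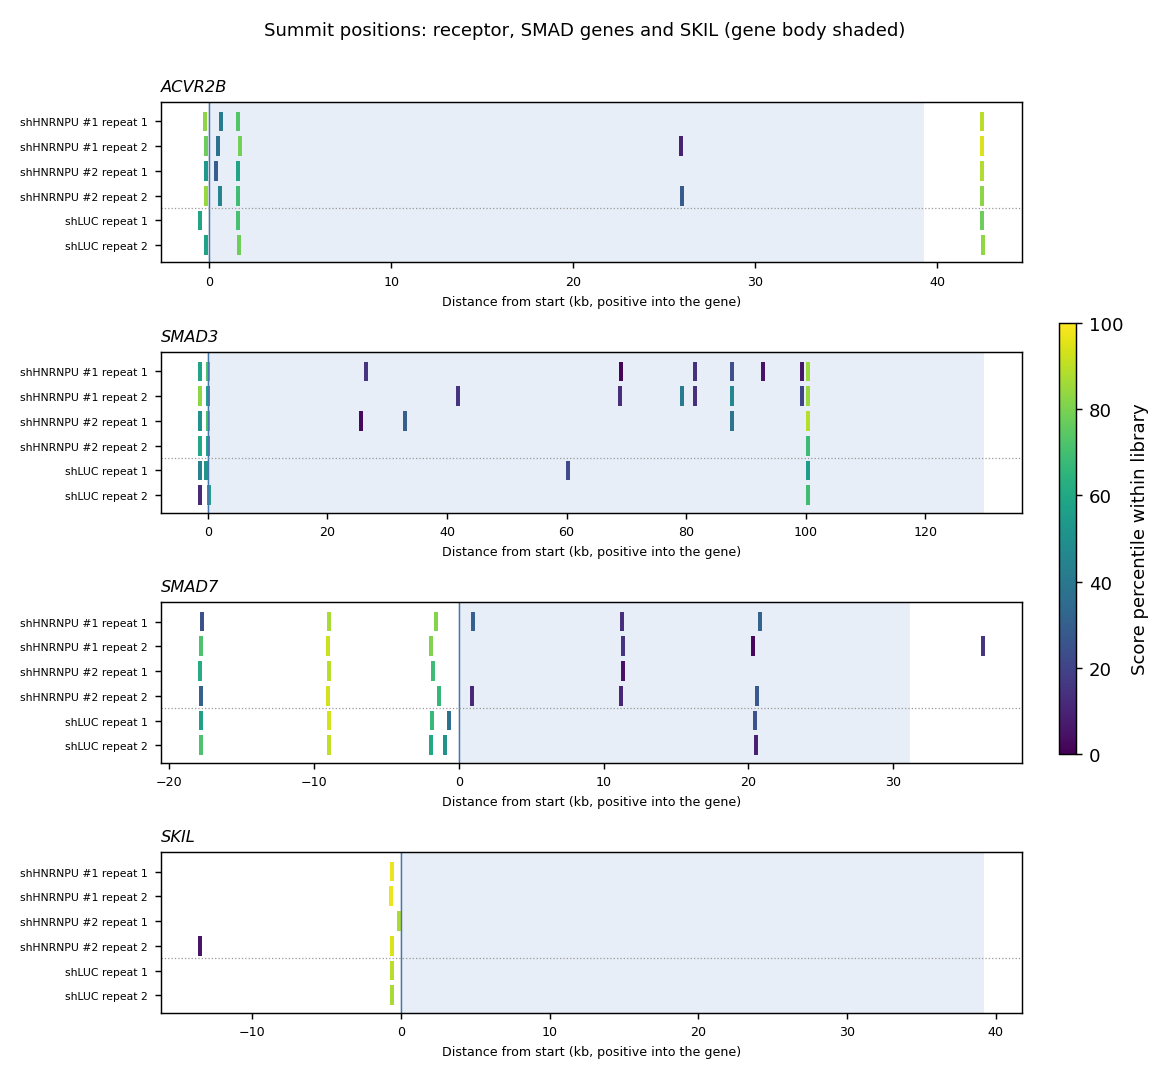
Positions of summits in the 6 libraries (rows) at ACVR2B, SMAD3, SMAD7 and SKIL, as distance in kb from the gene start (x axis). Shading is the gene, each tick is 1 summit, and colour is its score percentile within the library. The gained loci are ticks of 4 libraries, centred 602 bp past the ACVR2B start and 11322 bp past the SMAD7 start. SMAD3 shows scattered dark ticks in the upper rows.

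SMAD7 blocks the activated receptor and is itself a target of SMAD signalling. It lies at chr18:48919853-48950965 on the minus strand. Its window held 6, 6, 4 and 6 summits with shHNRNPU and 5 and 5 with shLUC, and the groups overlapped (difference 0.5). With summits scoring below 5 left out, SMAD7 had 3 in each shHNRNPU library and 4 in each shLUC library, so the direction turned and the groups no longer overlapped (exact permutation test, p = 0.133). The gained locus at chr18:48939643 was inside the gene, 11322 bp past the start, with low percentiles of 13.1, 14.5, 4.31 and 10.8 and scores of 2.26 to 3.38. The nearest shLUC summit was 9108 bp away.

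Around the SMAD7 start the summits lay at different neighbouring positions. Repeat 1 of shHNRNPU #1 and repeat 2 of shHNRNPU #2 had a summit 1539 bp before the start (81.5 and 66.2) and another 1013 bp inside the gene, 619 bp before an internal start (29.9 and 10.6). The other 4 libraries had theirs 1891 bp before the start, at 80.8 and 68.9 with shHNRNPU and 67.1 and 59.9 with shLUC. The shLUC libraries alone had a further summit closer in, 686 bp (35.8) and 962 bp (50.0) before the start. The libraries that stood apart here are those that stood apart at the NODAL start, 1 of each hairpin, which was seen only after the values were known. Farther upstream, at chr18:48959950, all 6 libraries had a strong summit at 87.1, 92.1, 89.3 and 93.0 against 93.5 and 90.3, within 74 bp of each other. The groups overlapped, as they did at chr18:48968781 (24.9, 71.5, 61.4 and 30.7 against 56.0 and 71.8), where the 2 lowest values were again those of the same libraries.

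SKIL encodes SnoN, a repressor that holds SMAD complexes at their targets in check. The gene is at chr3:170357715-170396849 on the plus strand and had the fewest summits, 1, 1, 1 and 2 against 1 and 1. Nearly all of them were at its start and strong. Percentiles were 96.9, 97.2, 87.5 and 94.6 with shHNRNPU and 89.4 and 87.0 with shLUC, with 3 of the shHNRNPU libraries above both controls and repeat 1 of shHNRNPU #2 between them. The means were 94.0 ± 4.49 (SD, n = 4) and 88.2 ± 1.70 (SD, n = 2), a difference of 5.84 points (p = 0.267, exact permutation test, adjusted p = 0.711). In 5 libraries the summit lay 618 to 647 bp before the start (chr3:170357068), and in repeat 1 of shHNRNPU #2 133 bp before it (chr3:170357582). The second summit of repeat 2 of shHNRNPU #2 was 13553 bp upstream, at the percentile 5.24.

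Among 26 further genes of the pathway, 2 had more summits in every shHNRNPU library than in both controls, 1 had fewer and 23 overlapped, against 3.31% and 3.67% of all protein-coding genes for more and fewer, with a median difference of 0. None of 10 genes for SMAD4 and the regulators of SMADs was called. FST, the secreted trap of activin, had 5, 4, 4 and 4 against 3 and 3. FOXH1, which brings SMADs to DNA, had 8, 8, 7 and 8 against 4 and 5. ACVR1C, a type I receptor, had 4 in each shHNRNPU library against 5 and 5. Each gave p = 0.133 by the exact permutation test, the smallest possible, and CFC1, the paralogue of TDGF1, had no summit in any library.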

How the data were processed

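The authors deposited 1 list of summits per library, each 1 bp wide, with a score that by its layout and values is a −log10 q-value, computed within that library. Scores start just above 1.30, which on that reading is a q-value of 0.05. The submitters' notes name hg38, cutadapt, Bowtie2, SAMtools, MACS2 and deepTools without roles. Versions, read filters and any Tn5 shift are not given in the sources used here. Peaks were called per library and not on pooled reads, scores were not scaled between libraries, and depth is unknown. Counting error therefore cannot be given. The article listed for the series describes other libraries, and its methods were not applied.

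Groups came from the sample titles. The genes, lists and tests were chosen with earlier results of these data known. Genes were placed by RefSeq GRCh38.p14, which lists TDGF1 as CRIPTO, and starts and strands came from RefSeq promoter entries. Exons were not in the tables used here. Loci were built from the highest percentile downwards, absorbing summits within 250 bp. Of the 230 summits, 5 lay within 250 bp of 2 centres and counted for both. Counts and percentiles were compared with a two-sided exact permutation test over the 15 choices of 2 control libraries, with Benjamini-Hochberg adjustment over all windows, loci or starts. The rule for named loci took the strongest of each gene, those within 1 kb of a start and those lost or gained. It also took those of all 6 libraries whose groups did not overlap and differed by at least 10 points. The alternatives tried were leaving out summits scoring below 5, lists of 1 size, match distances of 100 and 500 bp, absence within 1000 bp, windows of 5 and 50 kb, log10 scores, leaving out each library, and a replicate block. Python 3.11.15, numpy 2.4.6, pandas 2.3.3, scipy 1.17.1 and matplotlib 3.10.9 were used, and the scripts were tested on simulated data. A planned comparison of protein sequences was not made, and the strongest locus of the LEFTY2 window, 1 of the 2 that were higher in every shHNRNPU library, is an exception to the rule for named loci and is not reported here. Further loci outside this rule are described with their values, and no rule fixed their choice. The remaining loci are given as counts.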

Additional observations from a re-analysis of the deposited data

Results flagged for a closer look

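Within the 4 shHNRNPU libraries, 1 library stood apart in the number of summits at 3 genes, each by the whole range of the group (a gap of 1 in units of the range). At TDGF1 repeat 1 of shHNRNPU #2 had 5 summits and the others 6. At SMAD7 the same library had 4 and the others 6. At SKIL repeat 2 of shHNRNPU #2 had 2 and the others 1. Of 34 measures examined, about 1.7 would stand apart by chance, since the criterion marks about 1 in 20 groups. With small whole numbers a difference of 1 summit is enough.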

How the results depend on the processing

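Of 204 alternative values, 175 did not reverse (values) or stayed within 1.5 times (counts) or 1 SD between libraries (the sum over all windows), 21 moved beyond that and 8 changed direction. Values that did not reverse could still differ in size. Part of the 175 could not change, since the replicate block alters only p and a difference of 0 in the full lists cannot reverse. The latter holds for LEFTY1, LEFTY2 and SMAD2, so the 175 is no measure of how stable the results are. The count of 2 gained loci became 0 with scores of at least 5 and 1 with lists cut to 52168 summits. It was also 1 with absence judged within 1000 bp, which drops the ACVR2B locus by its distance of 765 bp. Matching within 100 bp gave 1 too, but this was a locus at the SMAD3 start (chr15:67065647). Neither the ACVR2B nor the SMAD7 locus was gained at that distance. Leaving out each library gave 2 to 4 gained and 0 to 4 lost loci, with 4 of each without repeat 2 of shLUC and 1 lost locus without repeat 1 of shLUC or repeat 1 of shHNRNPU #2, where fewer libraries define a call. Matching within 100 bp gave 2 lost loci. The difference of 1.32 summits per 10000 became 0.466 with scores of at least 5, 1.97 with windows of 50 kb and 0.750 without the SMAD3 window (chosen after seeing the data), and ran from 1.14 to 1.62 without each library. Loci with higher percentiles numbered 4 on log10 scores and 2 to 6 without each library, and those with lower percentiles numbered 2 with matching within 500 bp and 1 to 5 without each library, both largest without repeat 1 of shLUC.

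Direction changed at 5 genes whose groups overlapped in the full lists. With scores of at least 5 the difference was −0.25 at TDGF1 and −1 at SMAD7, where the groups then separated (exact permutation test, p = 0.133), with lists of 1 size 1.25 at NODAL, and with windows of 50 kb 0.5 at NODAL and −1.25 at SKIL. Without repeat 1 of shHNRNPU #1 it was −0.167 at GDF3, and without repeat 1 of shLUC −0.25 at GDF3 and at TDGF1, where the values without each library ran from −0.25 to 0.75 and from −0.25 to 1.75. The causes were not tested. The difference at the SMAD3-DT locus ran from 19.8 to 52.2 points without each library, at the LEFTY2 locus from −15.8 to −9.36, at the NODAL start from −21.9 to −14.1 and at the SMAD3 start from 7.47 to 12.5. Within 2 kb of the SMAD3 start it was 17.3.

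Repeats with the same number did not deviate together (r = −0.04, −0.01 and 0.00 over 25519 loci), so the numbers were not taken to pair the libraries. With the repeat number as a block the exact permutation test has 9 assignments and a smallest p of 0.222. ACVR2B (difference 1.5), the SMAD3-DT locus, the LEFTY2 locus and the NODAL and SMAD3 starts gave that p. Calls rest on presence or overlap and not on p, so the block could not change them. Depth is unknown, so a weak summit missing from a list and closed chromatin cannot be told apart. All windows include ends of neighbouring genes where these lie within 20 kb.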
